A study of Homo sapiens with 16 samples.

Results

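Across 21857 human promoters, 638 (2.92%) were chosen because the nuclease released nucleosome-sized DNA more readily just upstream of the transcription start site (TSS) while the surrounding 2 kb showed little preference for either digestion. The 638 promoters belong to 637 gene symbols and are called the chosen promoters here. They come from GM12878, a B-lymphoblastoid line transformed with Epstein-Barr virus, in which cells were left untreated or given heat-killed Salmonella typhimurium (HKST) for 20, 40 or 60 min. Chromatin of all groups was cross-linked and digested with 20 U (light) or 200 U (heavy) of micrococcal nuclease (MNase), in 2 replicates, which gives 16 samples. It is 1 line from 1 donor, and HKST presents bacterial products without a live infection. Each of the 8 combinations of time and digestion was deposited as a single table in which both replicates are pooled.

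MNase cuts linker DNA and then trims into the nucleosome itself, so a light digest releases fragile or accessible nucleosomes that a heavy digest destroys. Fragments that are plentiful after light and scarce after heavy digestion are called MNase-sensitive, and those that remain after heavy digestion are called resistant. At active promoters a nucleosome-depleted region lies over the TSS, and the nucleosome that borders it upstream is often sensitive and sits where transcription factors and remodelers work.

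Each table value counts fragment centers that fall within 60 bp, scaled to the sequenced fragments of that table (rpm, reads per 1e6) and given every 10 bp around the TSS in hg19. Sensitivity is the log2 ratio of light to heavy signal with 0.1 rpm added to each. Both tables are scaled to their own totals, so a ratio of 0 does not mean that both digestions recovered the same amount of DNA. It was taken over the window from -200 to -10 bp (window sensitivity) and over all 2 kb (2 kb sensitivity). The choice required an untreated light mean of 0.5 rpm or more, which 20059 promoters met. A depletion score, log2 of the untreated light signal from -100 to 40 bp over that of the 2 kb with 0.1 rpm added to both, had to lie between -2 and 0.3, which left 9049. A 2 kb sensitivity between -0.5 and 0.5 at 60 min left 5389, a window sensitivity above 0.8 at 60 min left 1117, and the same at 40 min left 638. The 40 and 60 min windows, the 60 min 2 kb sensitivity and the untreated light level therefore describe the choice and support nothing. The untreated heavy table and both 20 min tables had no part in it, although the untreated light values limited it through the level and the depletion score.

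Of the 638 chosen promoters, 504 had complete values in the untreated pair of tables, and 77 were complete in all 8 tables. These 77 lie on chromosomes 1, 10 and 11, because the 20 min tables as received end early. Light tables held 9.43 to 10.5 M fragments and those of heavy digestion from 3.27 M (40 min) to 7.04 M (60 min), with 5.12 M in untreated cells and 4.12 M at 20 min. The median chosen promoter had 17.7 light and 4.63 heavy fragments in the untreated window, and 19.3 and 3.5 at 20 min. Because replicates were pooled, the spread between them is unknown. Intervals of medians are 95% order-statistic intervals over promoters, intervals of single promoters are exact 95% intervals of fragment numbers that cover counting error only (PCR copies are not independent molecules), and no p-value was calculated. Each time point was digested separately, and an effect of time cannot be told apart from unequal digestion.

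The 4 promoters shown first kept a high window sensitivity in both readout conditions, and the 2 that follow had the lowest values when ranked by the higher of the untreated and 20 min values. Both rankings were made among promoters with 20 or more window fragments in each condition. Each line gives the 200 bases before the TSS, read 5′ to 3′ on the strand of the gene from GRCh37 (hg19), in lower case, with capitals for the motifs searched. Letters were searched on both strands. Core promoter elements were the GC box of Sp and KLF factors, GGGCGG, and the TATA box, TATAAA. For the ETS factors common at housekeeping promoters the search used CCGGAAG, and for the trimeric factor NF-Y it used CCAAT. NRF1, an activator of genes of respiration and growth, was searched as GCATGCGC, the methyl-CpG binding factor ZBTB33 as TCTCGCGAG, and YY1 as AAGATGGC. The signal-responsive elements were TGACGTCA, the cAMP response element (CRE), and TGACTCA, the site of AP-1. The interferon-stimulated response element was searched as GAAANNGAA. The B cell factors PU.1 and EBF1 were searched as AGAGGAAG and CCCNNGGG, and matches of different motifs may overlap. A match is a description of the letters and not a bound site.
ANKRD13C: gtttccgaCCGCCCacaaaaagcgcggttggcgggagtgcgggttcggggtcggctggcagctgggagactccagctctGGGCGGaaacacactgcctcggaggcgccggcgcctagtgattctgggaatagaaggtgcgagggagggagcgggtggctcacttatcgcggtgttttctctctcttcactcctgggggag
CLSTN1: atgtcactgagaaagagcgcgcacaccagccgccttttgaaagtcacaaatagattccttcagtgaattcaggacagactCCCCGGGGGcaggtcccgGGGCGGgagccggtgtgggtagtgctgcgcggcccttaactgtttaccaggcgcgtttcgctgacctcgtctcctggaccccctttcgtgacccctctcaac
NUDT17: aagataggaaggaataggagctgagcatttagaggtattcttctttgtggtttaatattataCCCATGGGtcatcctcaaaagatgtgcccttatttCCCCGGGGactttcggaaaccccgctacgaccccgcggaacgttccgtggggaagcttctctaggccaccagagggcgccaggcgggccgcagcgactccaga
GSTM4: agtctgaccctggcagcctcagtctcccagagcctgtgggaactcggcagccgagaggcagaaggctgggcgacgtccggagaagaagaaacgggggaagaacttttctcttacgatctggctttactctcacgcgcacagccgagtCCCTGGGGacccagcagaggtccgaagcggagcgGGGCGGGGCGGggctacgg
MIR107: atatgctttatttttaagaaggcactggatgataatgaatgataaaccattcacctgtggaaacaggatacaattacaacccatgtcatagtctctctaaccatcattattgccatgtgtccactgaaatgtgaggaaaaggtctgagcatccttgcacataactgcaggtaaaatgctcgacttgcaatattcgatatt
AGBL2: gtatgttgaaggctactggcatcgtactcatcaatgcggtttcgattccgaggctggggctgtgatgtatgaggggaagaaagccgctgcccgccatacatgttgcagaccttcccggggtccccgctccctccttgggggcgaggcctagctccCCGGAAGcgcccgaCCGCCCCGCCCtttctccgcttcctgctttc

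The ANKRD13C stretch lies at chr1:70820418-70820617 on the minus strand, with 64% GC and 2 GC boxes. In the GENCODE annotation an opposite-strand transcript starts 52 bp upstream, and an exon of the noncoding gene HHLA3 covers most of the 200 bases. The CLSTN1 stretch lies at chr1:9884551-9884750 on the minus strand (59.5% GC), outside any annotated gene, and its capitals mark 1 GC box and 2 overlapping EBF1 matches. The NUDT17 stretch lies at chr1:145589436-145589635 on the minus strand (54% GC), overlaps the gene's own first exon by 3 bp in 1 annotated transcript, and holds 2 EBF1 matches. The GSTM4 stretch lies at chr1:110198498-110198697 on the plus strand (64.5% GC), outside any annotated gene, with an EBF1 match 53 bp before the TSS and 2 overlapping GC boxes close to it. The MIR107 stretch lies at chr10:91352585-91352784 on the minus strand, within PANK1 and outside its exons, and was the poorest in GC of the 6 (37.5%) with none of the motifs. The AGBL2 stretch lies at chr11:47736929-47737128 on the minus strand (62.5% GC) and holds an ETS match 45 bp before the TSS and 2 overlapping GC boxes. None of the 6 held CCAAT.

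In untreated cells window sensitivity was already above 0 at most chosen promoters, though beyond counting error at only 23.9%. Mean light signal in the window was 0.814 rpm and mean heavy signal 0.421 rpm over the 504 promoters. Light signal therefore stood at 65.3% and heavy signal at 37.9% of the 2 kb mean of the same table. A further 4751 promoters met every other condition but not the one on the window and are called the remaining promoters. The 3231 of them with complete untreated tables had 1.07 rpm light and 1.13 rpm heavy, which were 77.4% and 84.1% of their 2 kb means. The untreated light signal was limited by the rule in both groups, so how the contrast divides between light and heavy is a description only. The remaining promoters are a rule-made group that lacks the sensitive promoters at 40 and 60 min, so values over all promoters are given as well.

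**Figure D1:**
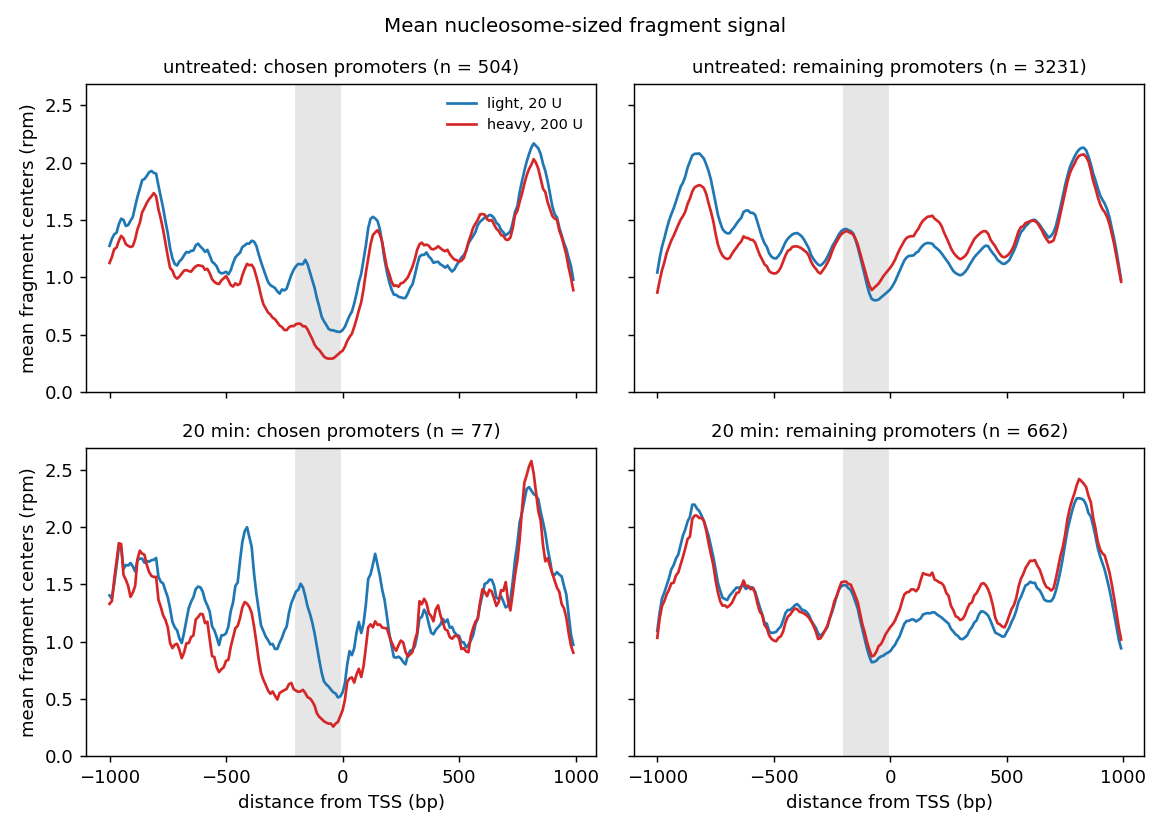
Mean rpm of fragment centers against distance from the TSS in bp, for light (blue) and heavy (red) digestion, at the chosen and remaining promoters in untreated cells and at 20 min; the grey band is the window. At the chosen promoters the heavy line lies furthest below the light line in and around the window. In untreated cells it runs slightly above the light line from 170 to 490 bp downstream. At the remaining promoters both lines run close together in the window.

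The median untreated window sensitivity of the 504 promoters was 0.83 (0.76 to 0.88), with quartiles at 0.41 and 1.24 and a range from -1.02 to 3.96. Window sensitivity was above 0 at 451 (89.5%), against 51.3% of 16233 promoters measured and 52.3% of the remaining promoters. Of the 16233 promoters 8322 lay above 0 and 6631 below, and the others were at 0, which lowers the share above 0 over all promoters. It was above 0.8 at 263 (52.2%), against 18.7% of all and 15.2% of the remaining promoters. With 0.5 in place of 0.1 rpm added, the median was 0.43 and the share above 0.8 was 16.9%, against 5.41% of all promoters. The exact counting interval lay above 0 at 120 of 503 promoters (23.9%), against 10.5% of all and 8.47% of the remaining ones. It lay below 0 at 0 of 503, against 11.7% of all and 13.4% of the remaining ones. The highest value was at TTC8, a component of the BBSome that serves cilia, with 47 light and 0 heavy fragments (lower bound 2.69), and the lowest at AIMP2, a scaffold of the tRNA synthetase complex, with 1 and 3; both were singled out after their values were seen.

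At 20 min of HKST the 77 promoters with complete tables had 0.959 rpm light and 0.409 rpm heavy in the window, or 72.6% and 36.5% of the 2 kb means. Median window sensitivity was 1.20 (0.96 to 1.38), with quartiles at 0.60 and 1.61. It was above 0 at 70 promoters (90.9%), against 55.8% of 2797 measured and 50.3% of the remaining ones. Of the 2797 promoters 1561 lay above 0 and 1033 below, and the others were at 0. Window sensitivity was above 0.8 at 51 (66.2%), against 27.5% of all and 16.3% of the remaining ones. With 0.5 rpm added the median was 0.59 and the share above 0.8 was 32.5%, against 9.94% of all promoters. The counting interval lay above 0 at 30 promoters (39%), against 13.7% of all and 7.12% of the remaining promoters, and below 0 at 0 of 77, against 10.4% and 12.7%. Window sensitivity was above 0.8 in both conditions at 25 promoters (32.5%), against 12% of all and 7.1% of the remaining ones.

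**Figure D2:**
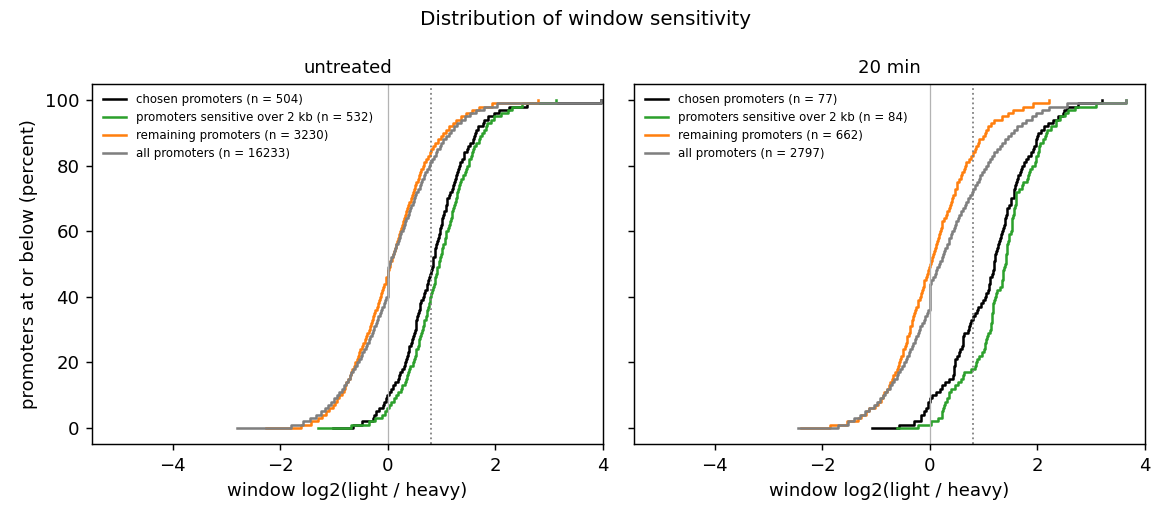
Cumulative percent of promoters at or below each window log2 ratio of light over heavy, in untreated cells (left) and at 20 min (right); the dotted line marks 0.8. The black line of the chosen promoters crosses 50% at 0.83 in untreated cells and at 1.20 at 20 min, while that of all promoters crosses it at 0.028 and 0.17 and that of the remaining promoters at 0.040 and 0.0042. The green line, of promoters that were also sensitive over 2 kb, crosses 50% at 0.95 and 1.39.

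In both readout conditions the median window sensitivity of the chosen promoters was above their median 2 kb sensitivity. The median 2 kb sensitivity of the chosen promoters was 0.17 in untreated cells and 0.26 at 20 min, against 0.043 and -0.067 at the remaining ones. In untreated cells it lay between -0.5 and 0.5 at 439 of 504 (87.1%), against 68.3% of all and 87.5% of the remaining promoters. At 20 min it was above 0.5 at 14 of 77 (18.2%), against 22.4% of all and 4.98% of the remaining ones. It lay between -0.5 and 0.5 there at 63 of 77 (81.8%), against 62.8% and 88.4%. A window above 0.8 together with a 2 kb sensitivity in that range, the pattern required at 60 min, was found at 225 of 504 (44.6%) in untreated cells, against 11.1% of all promoters and 11.3% of the remaining ones. At 20 min it was found at 40 of 77 (51.9%), against 14.1% of all and 14% of the remaining ones. The median of window minus 2 kb sensitivity was 0.63 (0.56 to 0.72) in untreated cells, against 0.041 over all promoters, and 0.85 (0.67 to 1.23) at 20 min, against 0.14.

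A second group of 662 promoters met the level, depletion and window conditions but had a 2 kb sensitivity above 0.5 at 60 min, and is called broadly sensitive here. Its untreated medians, over 532 promoters, were 0.95 in the window, against 0.83 at the chosen promoters, and 0.58 over 2 kb, against 0.17. At 20 min its window median was 1.39 over 84 promoters, against 1.20 at the chosen promoters. The share above 0.8 was 81%, against 66.2%. From 200 to 400 bp downstream of the TSS the untreated median was -0.15 at the chosen promoters, -0.16 at the remaining ones and 0.28 at the broadly sensitive ones. From -600 to -400 bp upstream it was 0.34 at the chosen promoters, 0.28 at the remaining ones and 0.67 at the broadly sensitive ones. In untreated cells the chosen promoters therefore lay near the remaining ones downstream and far upstream, and near the broadly sensitive ones in the window. At 20 min the upstream flank of the chosen promoters was 0.60, against 0.13 at the remaining and 0.75 at the broadly sensitive promoters. Over these 74 chosen promoters the upstream flank thus lay nearer to the broadly sensitive ones. Downstream it was -0.11 at the chosen, -0.17 at the remaining and 0.35 at the broadly sensitive promoters. The untreated upstream flank came from 478 chosen promoters, and a change of the flank between conditions was not tested.

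**Figure D3:**
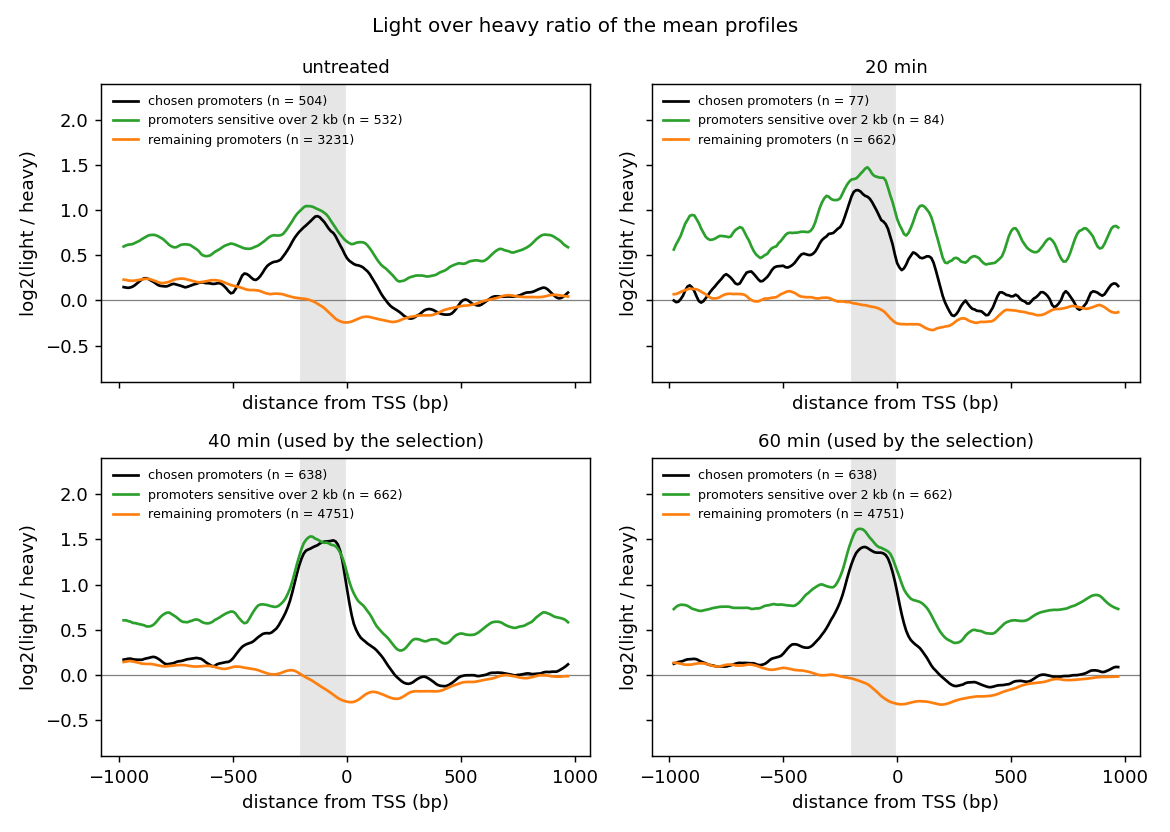
Log2 ratio of the mean light over the mean heavy profile, smoothed over 5 positions, against distance from the TSS in bp, for the chosen (black), broadly sensitive (green) and remaining (orange) promoters at the 4 time points; the grey band is the window and the lower panels were used by the selection. In untreated cells the black line peaks at 0.93 at -130 bp and at 20 min at 1.22 at -170 bp, and it runs close to the remaining promoters downstream of the TSS beyond the first nucleosome.

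The ratio of the mean profiles of the chosen promoters peaked at -130 bp in untreated cells, at 0.93, and stayed above 0.5 of that peak from -280 to 0 bp. At 20 min it peaked at -170 bp, at 1.22, and stayed above 0.5 of it from -340 to -20 bp. At 40 and 60 min, which the choice used, the peaks were 1.49 at -60 bp and 1.42 at -140 bp. The smoothed heavy profile stayed below 60% of its 2 kb mean over 370 bp in untreated cells and at 20 min, with its lowest point at -50 bp (26.7% and 25.1% of the mean). The light profile did so over 140 and 120 bp, with its lowest point at -30 and -20 bp (42.7% and 40.8%). At the remaining promoters the heavy profile did not fall below 60% of its mean in either condition. The untreated light depletion was limited by the rule, so these widths are a description.

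Between untreated cells and 20 min, window sensitivity was higher at 49 and lower at 28 of the 77 promoters. The share higher was 63.6%, against 54.6% of all promoters, 47.6% of the remaining and 72.6% of the broadly sensitive ones. Of all 2797 promoters 1527 were higher and 1107 lower, and the others did not differ, which lowers the share higher over all promoters. The median difference, 20 min minus untreated, was 0.44 (0.03 to 0.51), against 0.081 over all promoters, -0.046 over the remaining and 0.53 over the broadly sensitive ones. It was 0.18 with 0.5 rpm added, 0.22 in a window from -250 to -100 bp and 0.10 at the 18 promoters with 4 or more heavy fragments at 40 min. In the same 77 promoters the untreated median was 0.78 (0.54 to 0.96) and the 20 min median 1.20. The difference passed the counting interval at few single promoters. It lay above 0 at 1 of 75 (1.33%), against 2.02% of all, and below 0 at 3 of 75 (4%), against 1.97%. Counts of 1 and 3 do not set the chosen promoters apart from this background. All comparisons with 20 min use the same untreated tables.

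Base composition of the window moved with this difference, at the chosen promoters and over all promoters. Of the 77 promoters, 48 had 50% GC or more, and among them 37 were higher and 11 lower at 20 min, with a median difference of 0.49 (0.34 to 0.76). The 29 with less than 50% GC had 12 higher and 17 lower, with a median of -0.17 (-0.65 to 0.47). Over all promoters 1248 of 2161 with 50% GC or more were higher and 765 lower. With less than 50% GC 279 of 636 were higher and 342 lower. The counts below 50% GC thus did not set the chosen promoters apart from all promoters. The corresponding medians were 0.15 and -0.085 over all promoters, and 0.023 and -0.20 over the remaining promoters. The broadly sensitive promoters had 0.53 in both GC ranges. The split at 50% was chosen after the data were seen, and the part of base composition in the difference was not tested.

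**Figure D4:**
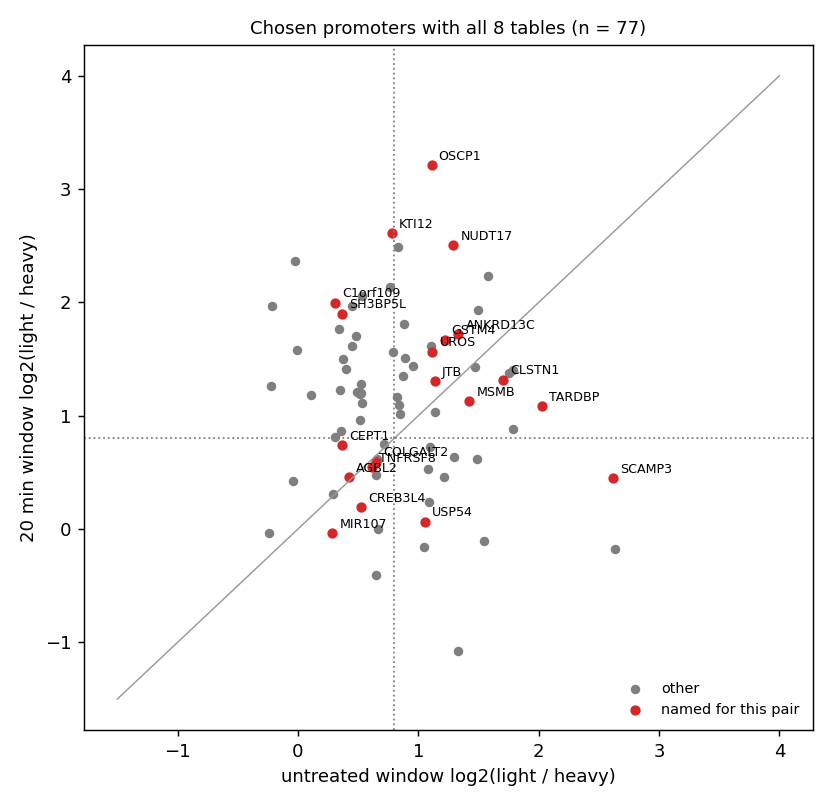
Window log2 ratio of light over heavy in untreated cells (x axis) and at 20 min (y axis) for the 77 chosen promoters with complete tables; the line marks equal values, the dotted lines 0.8, and red points are genes named for this pair of values. Of the 77 points 49 lie above the line and 25 lie in the upper right corner beyond both dotted lines.

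Genes were named among chosen promoters with 20 or more window fragments in both conditions. The 8 promoters with the highest lower value of the pair belong to genes of varied function. At UROS, a heme synthesis enzyme (TSS chr10 127511837), light signal was 3.47 rpm untreated and 4.96 rpm after 20 min of HKST, and heavy signal 1.54 and 1.61 rpm. Its sensitivity was 1.12 (0.53 to 1.86) and 1.57 (0.96 to 2.35), from 25 and 21 heavy fragments. UROS had the most fragments of the 8, and light signal exceeded heavy signal in each pair.

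JTB, a transmembrane protein with roles in cytokinesis, had 2.57 and 3.23 rpm light against 1.11 and 1.25 rpm heavy, with sensitivities of 1.14 (0.47 to 2.0) and 1.3 (0.65 to 2.22). GSTM4, a glutathione transferase, had 2.05 and 2.01 rpm light against 0.823 and 0.562 rpm heavy, with 1.22 (0.47 to 2.34) and 1.67 (0.77 to 3.26). NUDT17, a nudix hydrolase, had 1.66 and 2.57 rpm light against 0.620 and 0.370 rpm heavy, with 1.29 (0.42 to 2.45) and 2.51 (1.55 to 4.48). These 3 promoters lay above 0 beyond counting error in both conditions, and the intervals of their differences between conditions included 0. CLSTN1, the cell surface protein calsyntenin, had 1.58 and 1.28 rpm light against 0.415 and 0.455 rpm heavy, with 1.70 (0.60 to 3.37) and 1.32 (0.15 to 3.21). MSMB, a protein secreted by the prostate, had 2.07 and 2.12 rpm light against 0.708 and 0.916 rpm heavy, with 1.42 (0.66 to 2.58) and 1.13 (0.30 to 2.14). Both lay above 0 in both conditions as well. ANKRD13C had 0.545 and 0.550 rpm light against 0.156 and 0.0971 rpm heavy, with 1.33 (-0.12 to 4.07) and 1.72 (0.25 to 8.28). It rested on 3 and 1 heavy fragments, and its untreated interval included 0. OSCP1, the eighth, also had the largest positive difference and is given with those.

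The 6 promoters with the lowest higher value of the pair had passed the choice at 40 and 60 min but showed little window sensitivity in the readout conditions. MIR107, a microRNA gene whose deposited TSS lies inside PANK1, had 1.08 and 0.997 rpm light against 0.870 and 1.03 rpm heavy. Its sensitivity was 0.29 (-0.61 to 1.28) in untreated cells and -0.037 (-0.95 to 0.99) at 20 min, against 1.09 and 1.06 at 40 and 60 min. AGBL2, a carboxypeptidase that acts on tubulin, had 2.21 and 2.46 rpm light against 1.62 and 1.77 rpm heavy, with 0.43 (-0.21 to 1.12) and 0.46 (-0.17 to 1.22). CREB3L4, a transcription factor held in the endoplasmic reticulum membrane, had 0.52 (-0.22 to 1.44) and 0.19 (-0.45 to 0.86). TNFRSF8, the CD30 receptor of activated lymphocytes, had 0.62 and 0.54, COLGALT2, a collagen galactosyltransferase, 0.65 and 0.60, and CEPT1, a phospholipid synthesis enzyme, 0.37 and 0.74. All 6 had counting intervals that included 0 in both conditions, so the sensitivity by which they were chosen was not detectable there at this depth.

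Of the 4 named promoters with the largest positive difference, SH3BP5L was the only one whose interval excluded 0. SH3BP5L, a relative of the Rab11 exchange factor SH3BP5 (TSS chr1 249120154), had 1.06 and 1.81 rpm light and 0.801 and 0.412 rpm heavy. Its sensitivity was 0.37 (-0.58 to 1.37) in untreated cells and 1.90 (0.85 to 3.55) at 20 min, a difference of 1.53 (0.05 to 3.47). Light signal was thus higher and heavy signal lower at 20 min. OSCP1 differed by 2.1 (-0.50 to 8.41), with 5 heavy fragments before and 1 after treatment. KTI12, an Elongator-associated protein, differed by 1.83 (lower bound -0.40) with 5 and 0 heavy fragments, and C1orf109 by 1.68 (-0.59 to 8.13) with 8 and 1. These 3 rested on few heavy fragments.

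Among promoters with large negative differences, SCAMP3 had an interval that excluded 0, and USP54 and TARDBP did not. SCAMP3, a membrane trafficking protein (TSS chr1 155232176), had 0.993 and 0.798 rpm light and 0.0782 and 0.558 rpm heavy. Its sensitivity was 2.62 (1.49 to 9.42) in untreated cells and 0.45 (-0.71 to 1.81) at 20 min, a difference of -2.17 (-9.13 to -0.53), from 1 and 8 heavy fragments. At 40 and 60 min it was 1.04 and 1.31. USP54 differed by -0.99 (-3.48 to 0.89) and TARDBP, the RNA-binding protein TDP-43, by -0.95 (-2.63 to 0.37). TARDBP was above 0 beyond counting error in both conditions, at 2.03 (1.17 to 3.49) and 1.08 (0.30 to 2.07). Below the limit of 20 fragments, and named after their values were seen, AMY2A, a pancreatic amylase, and SLC5A12, a lactate transporter, also lay lower beyond counting error. AMY2A had 0 heavy fragments before and 5 after treatment, and SLC5A12 had 2 and 8. Their windows held 29.5% and 35.5% GC.

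At the threshold of 0.8 the values of members and non-members were next to each other. OR1S2, an olfactory receptor gene, was just inside with 0.801 at 60 min, as was LHFPL3-AS2, an antisense RNA gene, with 0.801 at 40 min. OR51B6, another olfactory receptor gene, was just outside with 0.7999 at 60 min, as was DANCR, a noncoding RNA gene, with 0.799 at 40 min. At 40 min DANCR rested on 6 light and 1 heavy fragments.

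The chosen promoters fell into many of 24 gene lists, with 20.2% of the 638 in at least 1 list, against 13% of all promoters. Shares are of all promoters of a list in the tables unless said otherwise. Of the 504 chosen promoters with untreated values 89.5% were above 0 and 52.2% above 0.8, against 51.3% and 18.7% of all promoters. Counts past these limits within a list are a description only. Of 92 cytosolic ribosomal protein promoters, 8 were chosen (8.70%). Their untreated median was 1.01, with 5 of 7 above 0.8. RPS25, of the small subunit, had 1.22 rpm light and 0.440 rpm heavy in untreated cells, or 1.29 (0.38 to 2.96), and RPLP0, of the stalk of the large subunit, had 0.931 and 0.410 rpm, or 1.01 (-0.04 to 2.61). Of 74 mitochondrial ribosomal proteins 5 were chosen, with an untreated median of 0.75; MRPL53 was at 0.75 and MRPL18 at 0.20. Of 88 oxidative phosphorylation subunits 6 were chosen, with ATP5G2, of ATP synthase, at 1.22 (0.43 to 2.38) and UQCRQ, of the cytochrome bc1 complex, at 0.32 (-0.85 to 1.79). Each of these 3 lists had a larger share chosen than the 2.92% of all promoters, and their untreated values were spread widely. Among promoters that met the level, depletion and 2 kb conditions, of which 11.8% were chosen, the shares were 44.4%, 62.5% and 37.5%, from 18, 8 and 16 promoters.

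Of 86 promoters of RNA polymerase II and its initiation factors 5 were chosen, and 4 of the 5 were above 0.8 in untreated cells. These are too few to set against the 52.2% of all chosen promoters. The Mediator subunits MED11 and MED29 were at 1.26 (-0.02 to 3.53) and 0.82 (-0.47 to 2.78). Of 49 proteasome promoters 3 were chosen, with PSME3, an activator of the proteasome, at 1.01 (0.27 to 1.96). PSMC6, an ATPase of its regulatory particle, had no complete untreated pair. Of the vesicle transport promoters 5 were chosen (3.03%), with SEC61B, of the translocation channel, at 1.65 rpm light and 0.190 rpm heavy, or 2.59 (1.44 to 5.40), and COG8, of the Golgi tether, at 0.87 (-0.18 to 2.32). SEC61B had 48 light and 3 heavy fragments, and its interval lay well above 0.

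Of 240 ubiquitin ligases, conjugating enzymes and proteases 10 were chosen, with RNF8, a ligase of the DNA damage response, at 1.3 (0.43 to 2.83) and USP33, a deubiquitinase, at 0.85 (-0.05 to 2.05) in untreated cells and 1.02 (0.22 to 2.14) at 20 min. Zinc finger genes gave the second largest number, 27 of 499 (5.41%). Of 23 with untreated values 20 were above 0 and 11 above 0.8, near the 89.5% and 52.2% of all chosen promoters. ZNF197 was at 1.24 (0.55 to 2.22) and ZNF224 at 1.03 (0.29 to 2.11). The 67 chosen promoters on chromosome 19 made up 4.57% of the 1466 there, the largest share of any chromosome. The 5 chromatin regulators chosen of 94 were lower, with an untreated median of 0.45, SETD1A, a histone methyltransferase, at 0.45 (-0.45 to 1.55) and SMARCE1, a remodeler subunit, at 0.97 (-0.36 to 3.27). The 3 chaperones chosen of 82, DNAJC4 (0.27) and HSPD1 (0.37) among them, were above 0, and none reached 0.8 in untreated cells. Translation factors gave 3 of 90, EIF2B1 (0.50, -0.08 to 1.20) and EIF1AD (0.94, -0.07 to 2.4) among them. Replication and cell cycle genes gave 3 of 97, with RFC5, a clamp loader subunit, at 0.93 and the kinase CDK1 at 0.45 without and 1.97 after HKST, with 2 and 0 heavy fragments. Splicing factors gave 1 of 79.

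Histone genes gave 4 of 72, with an untreated median of 2.12 and 3 above 0.8, from too few promoters to compare with the 52.2% of all chosen ones. HIST2H2BE, which encodes a histone H2B, had 0.599 rpm light and 0.103 rpm heavy in untreated cells and 0.437 and 0.103 rpm at 20 min, with 1.79 (0.27 to 5.47) and 1.4 (-0.14 to 7.96). HIST1H2AL, for a histone H2A, was at 0.028 (-1.45 to 1.77). HIST1H2BJ and HIST1H2AG are a divergent pair whose windows overlap, so their values of 2.46 (lower bound 0.68) and 2.69 (lower bound 0.92), both with 0 heavy fragments, share many of their fragments. In all, 27 chosen promoters lay in 15 pairs with overlapping windows.

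Genes of immunity and of the response to bacterial products gave shares on both sides of the 2.92% of all promoters. Interferon-stimulated genes gave 3 of 51 (5.88%), with IRF2, a transcription factor of the interferon system, at -0.088 (-2.55 to 2.50) and OAS2, an antiviral enzyme, at 1.09 (-1.38 to 7.18), with 3 and 1 heavy fragments. NF-kB subunits, inhibitors and targets gave 1 of 53 (1.89%), Toll-like receptor signaling 0 of 26, immediate early genes 2 of 50 (4%), B cell identity genes 1 of 44 (2.27%), and T and NK cell markers 0 of 26. The single NF-kB promoter was NFKBIE, an inhibitor of NF-kB, at 1.28 (-0.18 to 3.40), and the single B cell promoter was BANK1, a scaffold of B cell receptor signaling, at 0.59 (-0.36 to 1.79). Both were named after their values were seen, and neither interval excluded 0.

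Promoters of genes known from other tissues were also chosen. Olfactory receptors gave the largest number, 31 of 371 (8.36%), with a median GC of 34% in the window. Only 4 of the 31 had complete untreated values, all 4 above 0 and 3 above 0.8, with OR5H14 at 0.988 rpm light and 0.357 rpm heavy, or 1.25 (0.21 to 3.04). OR51S1, with 62 untreated light fragments, had no complete untreated heavy value. Keratins and their associated proteins gave 1 (0.694%), homeobox genes 1 of 97, and ion channels and neurotransmitter receptors 1 (0.581%). Among olfactory receptor promoters that met the other conditions the share chosen was 14.6%, close to the 11.8% over all such promoters.

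Base composition moved with membership. Median GC of the 200 bases before the TSS was 53.5% at the chosen promoters, 51.5% at the broadly sensitive, 54.5% at the remaining and 61% at all promoters. With all promoters in 5 classes from low to high GC, the chosen made up 5.27%, 3.98%, 3.5%, 1.88% and 0.155% of each class. Among promoters that met the level, depletion and 2 kb conditions the shares were 13.9%, 11.7%, 12.9%, 9.93% and 2.54%, so much of the slope over the first 4 classes lay in those conditions and not in the one on the window. Their untreated median window sensitivity was 0.92, 0.89, 0.76, 0.73 and 0.28, the last from 6 promoters. At the remaining promoters it was 0.54, 0.026, -0.29, -0.28 and -0.17. The chosen promoters were thus above the remaining ones in each class, with the smallest gap, 0.92 against 0.54, in the class with the least GC. In that class 55.6% of the chosen, 33.2% of the remaining and 39.8% of all promoters were above 0.8, while in the second class the shares were 57.6%, 9.75% and 23.6%. The part of base composition in the choice was not tested.

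**Figure D5:**
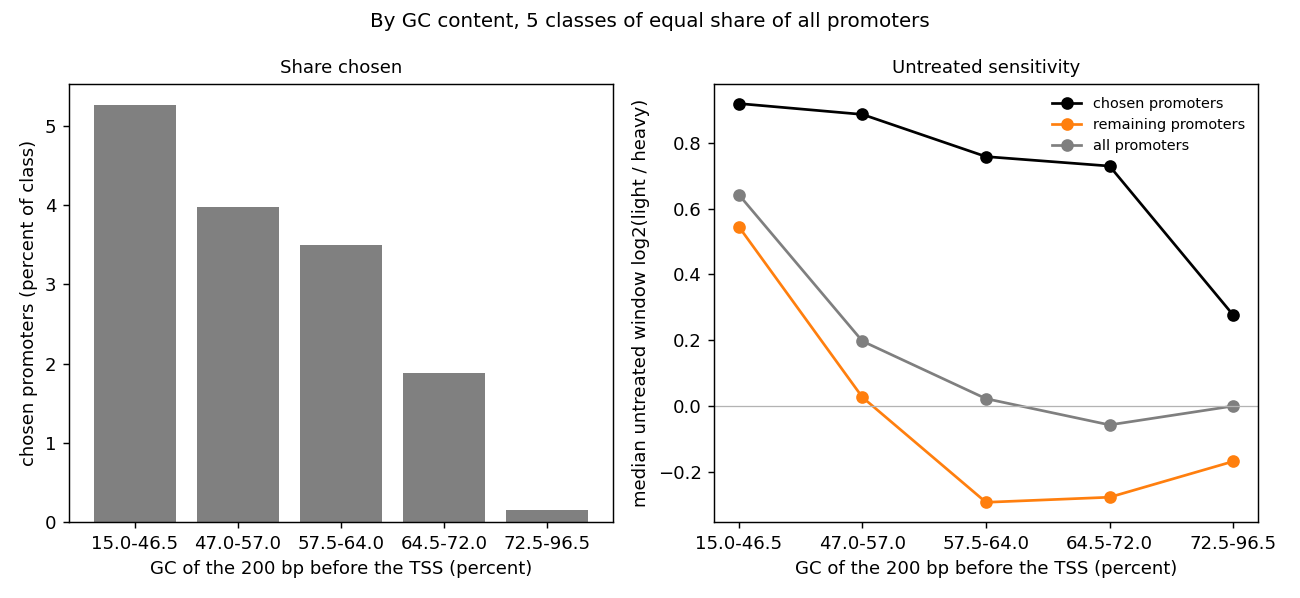
Percent of promoters chosen (left, bars) and median untreated window log2 ratio of light over heavy (right, points) in 5 classes of GC content. The share chosen goes from 5.27% in the lowest to 0.155% in the highest class, and the black line of the chosen promoters lies above those of the remaining and of all promoters in each class.

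The chosen promoters differed from the remaining ones in sequence features that the rule did not use. The ratio of observed to expected CpG had a median of 0.69, against 0.40 at the remaining and 0.68 at all promoters. It was above 0.6 at 57.2%, against 35% and 56.7%. The broadly sensitive promoters also had a median of 0.68, so this ratio was not particular to the chosen ones. The median depletion score, which the rule limited, was -1.18 at the chosen, -1.08 at the broadly sensitive and -0.65 at the remaining promoters. Motifs were not counted at the broadly sensitive promoters. CCAAT, the core of the NF-Y site, was present on either strand in 275 of 638 windows (43.1%), against 28.4% of the remaining and 28.4% of all promoters. Across the 5 GC classes its share was 38.7%, 40.7%, 48.3%, 50% and 57.1% of the chosen, against 30.5%, 29.2%, 29%, 25.6% and 19.7% of the remaining promoters. The higher share of CCAAT was therefore present in every class, the last of which held 7 chosen promoters. Chosen promoters with the letters had an untreated median of 0.77 and those without 0.87, so CCAAT did not mark the most sensitive among them.

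CCGGAAG, the core bound by ETS factors, was present in 12.7% of the chosen windows, against 4.78% of the remaining and 7.87% of all. In the lowest GC class it was as rare among the chosen (0.889%) as among the remaining (0.932%), and in the next class the shares were 19.2% and 4.47%. GCATGCGC, bound by NRF1, was present in 3.92%, against 1.35% and 2.48%, and TCTCGCGAG in 1.25%, against 0.274% and 0.618%. The GC box GGGCGG was present in 34.5%, against 28.5% of the remaining and 46.1% of all promoters. TATAAA was present in 11.8%, against 10.3% and 7.92%, and GAAANNGAA in 8.46%, against 5.75% and 4.77%. The EBF1 letters were present in 9.87%, against 11.9% and 15%, and those of PU.1 in 2.98%, against 3.85% and 2.86%. The letters of YY1 were present in 1.41%, 0.737% and 1.14%, of CRE in 1.1%, 1.05% and 1.7%, and of AP-1 in 2.66%, 3.77% and 2.62%. These are shares of letters in a window and say nothing about binding.

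Divergent starts were more frequent upstream of the chosen promoters than of the remaining or all promoters. They were not counted at the broadly sensitive promoters. An opposite-strand GENCODE transcript started within 1000 bp upstream at 29% of the chosen, against 15.8% of the remaining and 22.8% of all promoters. Another deposited TSS lay there on the opposite strand at 15.2%, against 5.79% and 9.57%. The untreated median was the same with and without a divergent GENCODE start (0.83 and 0.83). With and without a deposited opposite-strand TSS it was 0.90 and 0.83, and the 20 min median was 1.57 over 11 promoters and 1.11 over 66. Protein-coding genes made up 81.3% of the chosen, 71.1% of the remaining and 77% of all promoters. A GENCODE start lay within 50 bp of the deposited TSS at 79.5%, 77.6% and 79.9%.

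The number of heavy fragments behind the choice was low. At 40 min the median chosen window held 1.5 heavy fragments, against 4.42 over all promoters and 9.5 at the remaining ones. Many chosen windows held 0, as did 4856 of all 21857 promoters and 217 of the 4751 remaining ones. The choice used the 40 min window, so low heavy numbers there are part of the rule. Chosen windows with 0 had an untreated median of 0.70, with 43.8% above 0.8, against 31.7% of the remaining promoters that also held 0. With 1 heavy fragment 56.6% of the chosen and 38.3% of the remaining promoters were above 0.8, and with 2 to 3 the shares were 55.1% and 27.3%. Windows with 4 or more heavy fragments at 40 min had an untreated median of 0.84, with 55.3% above 0.8, against 10.8% of the remaining promoters. This last range has no upper end, so the numbers of fragments in it were not matched between the groups. The dependence of the 20 min difference on depth was not tested.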

How the data were processed

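Promoter DNA was captured after MNase digestion of GM12878 nuclei. The authors discarded reads that were unpaired or not uniquely aligned to hg19, counted centers of fragments of 140 to 200 bp every 10 bp over 60 bp, and deposited the values as rpm, with replicates pooled (submitters' processing notes: Bowtie2 2.2.2, SAMtools, bedtools). As received, 3 tables stop early: heavy untreated after 16260 complete promoters, light 20 min after 2801 and heavy 20 min after 6779. Between 9.90% and 10.8% of bins had no value and were left out. Low values were whole multiples of 0.5 of 1 fragment within 0.05 of a step at 100% of values, from which fragments were recovered. Intervals of single promoters are exact conditional intervals, without the added 0.1 rpm, and were tested on simulated fragments.

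The members, gene lists and motifs were chosen with earlier results of these data known. Named genes, with 20 or more fragments in both conditions, are the 8 highest by the lower and the 6 lowest by the higher of the untreated and 20 min values, the 4 largest differences each way, the 2 best covered members of each list with 3 or more, and the 2 nearest to 0.8 on each side; 1 gene that this rule names is not reported here. Lists were matched by symbol, and sequence and annotation came from GRCh37 and GENCODE lifted to it. Python 3.11.15, numpy 2.4.6, scipy 1.17.1 and matplotlib 3.10.9 were used.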

Additional observations from a re-analysis of the deposited data

How the results depend on the processing

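No paired analysis was possible because each table pools both replicates, and for the same reason no replicate could be left out. Adding 0.5 rpm lowered the medians to 0.43 in untreated cells and 0.59 at 20 min, the shares above 0.8 to 16.9% and 32.5% (5.41% and 9.94% of all promoters), and the medians of window minus 2 kb to 0.33 and 0.48; adding 0.05 rpm gave medians of 0.93 and 1.39 and an untreated window minus 2 kb of 0.75. The ratio of summed values was 0.95 in untreated cells. With a window sensitivity above 1.0 required at 40 and 60 min, 421 promoters were chosen; 12 had a value in all 200 bins, with an untreated window minus 2 kb of 0.78 over 11, and none of them had 20 min values. In 13 of 82 alternatives a median left its 95% interval, or a share or number of promoters changed by more than 1.5 times, and in 0 a value changed sign. The median 20 min difference was 0.18 with 0.5 rpm, 0.22 from -250 to -100 bp, 0.32 when centred on the median of all promoters and 0.10 at promoters with 4 or more heavy fragments at 40 min, a check added after the data were seen; these stayed within the interval of 0.44 (0.03 to 0.51) but were lower by more than 1.5 times, except for the centred value, and the cause was not tested. Depth limited single promoters most: the median untreated window held 4.63 heavy fragments, and the 20 min one 3.5.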
